A study of Mus musculus with 8 samples.

Results

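The genes described here are 5 pairs of glycolytic isoforms: the hexokinases Hk1 and Hk2, the phosphofructokinases Pfkp and Pfkm, the enolases Eno1 and Eno3, the phosphoglycerate mutases Pgam1 and Pgam2, and the lactate dehydrogenase subunits Ldha and Ldhb. They were picked by name through their Ensembl identifiers, and all 10 were found among the 37991 genes of the deposited count table. In these libraries the ratio of Pfkp to Pfkm reads per kilobase was 0.338 ± 0.146 in single colored and 0.135 ± 0.0396 in double colored cells (SD, n = 4 each), with no overlap between the groups. This was the largest difference in log2 ratio of the 5 pairs (two-sided exact permutation p = 0.0286, and 0.143 by Benjamini-Hochberg over the 5 ratios). Without single colored replicate 1 the exact permutation p was 0.0571.

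Glycolysis splits glucose into pyruvate, and several of its steps are carried out by enzymes that come in a form found in most tissues and a form enriched in muscle. Hexokinase traps glucose in the cell, phosphofructokinase commits it to the pathway, phosphoglycerate mutase and enolase act in its lower part, and lactate dehydrogenase interconverts pyruvate and lactate. In striated muscle the usual forms are Hk2, Pfkm, Eno3 and Pgam2. For lactate dehydrogenase the heart form is Ldhb, while Ldha predominates in fast skeletal muscle and many other tissues. The adult heart takes most of its energy from fatty acids, and the fetal heart relies more on glucose.

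Libraries were made from isolated adult cardiomyocytes of mouse hearts with an alpha-MHC MERCREMER MADM genetic background. The alpha myosin heavy chain promoter drives a hormone-activated Cre recombinase in cardiomyocytes, and MADM (mosaic analysis with double markers) is a reporter in which a cell that recombines and then divides can give daughters of 1 color each. Hearts of both groups were injected with adenoviruses for 4 cell cycle genes, which the labels call 4F, and cells were taken 2 weeks later. The 4 single colored libraries are labelled as having performed the cell cycle and the 4 double colored libraries as not having performed it. Both groups thus had the virus, and hearts without it were not analysed here. The sources used here give neither age nor sex of the mice, nor whether a replicate is a separate animal. The p-values therefore describe spread among these libraries only, and that spread may be technical. The comparison asks how cells that went through the cycle differ from cells of the same treatment that did not.

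The libraries held 23820700 to 30082278 reads, and the nuclear genes kept 3503353 to 6112595 of them. The mitochondrial genome gave 80.9%, 85.9%, 77.5% and 85.4% of reads in single and 87.7%, 88.3%, 84.2% and 85.9% in double colored replicates 1 to 4, a lower share in single colored cells in all 4 numbered pairs. With mitochondrial genes left out of the scaling and the test, an alternative added after the data were seen, edgeR called 309 genes, as many as with them. All 12 cardiomyocyte marker genes were measured, Myh6 and Tnnt2 among them, with a summed level of 14300 to 26100 CPM (read counts scaled to a common library size with TMM factors) in single and 22700 to 29900 CPM in double colored libraries. Single colored replicate 1 had the lowest sum of all 8 libraries. Of the markers of other cells, all 16 myeloid genes were tested, with 7 higher and 1 lower in single colored cells and summed levels of 286 to 496 CPM against 151 to 208 CPM. Of 13 lymphocyte genes 10 were tested and 7 were higher, with 25.7 to 58.1 against 2.80 to 11.4 CPM. Of 12 fibroblast genes 3 were higher, with 841 to 2330 against 403 to 934 CPM. These calls are from edgeR at an adjusted p of 0.05. No endothelial, smooth muscle and pericyte, erythroid, mesothelial or skeletal muscle gene passed. In the same lists single colored replicate 1 had the highest myeloid, lymphocyte and fibroblast sums. In bulk libraries such as these, fewer cells of a type and less RNA per cell cannot be told apart.

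**Figure D1:**
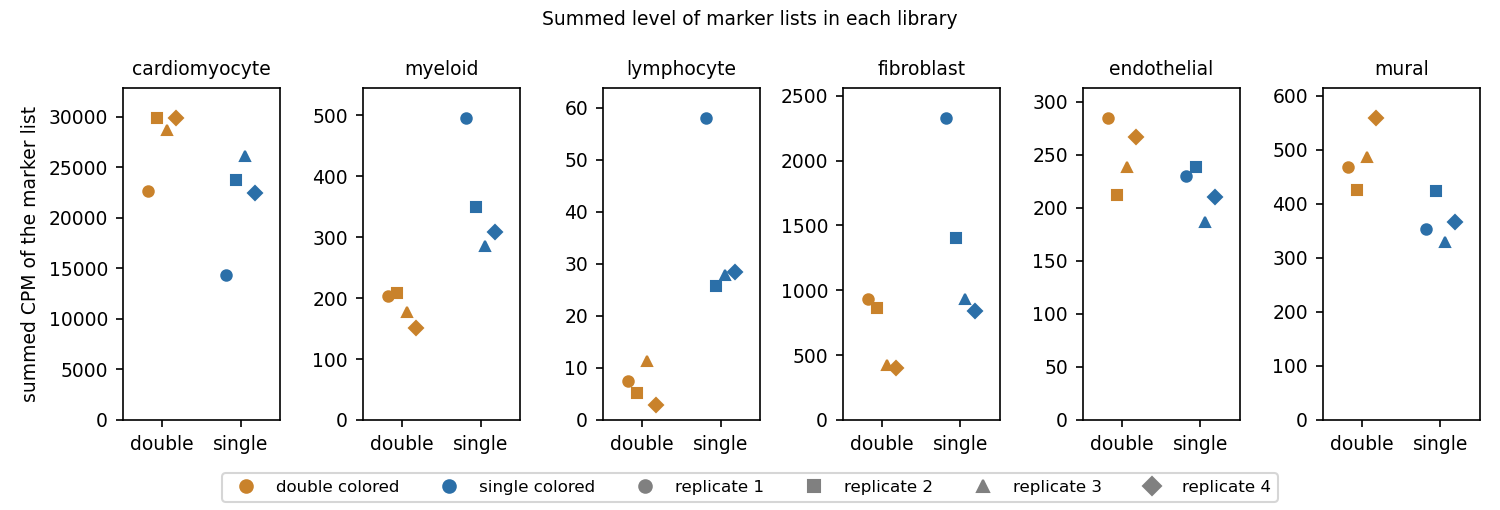
Summed TMM CPM (y axis, from 0) of 6 marker lists in each library, with double colored libraries at the left and single colored libraries at the right of each panel and the replicate number as symbol. Single colored replicate 1 lies lowest for cardiomyocyte genes (14300 CPM) and highest for myeloid, lymphocyte and fibroblast genes.

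The 250 bases before the transcription start are shown for Pfkp, Eno3 and Ldhb, members that passed the threshold with the replicate number as a block and have 1 listed start, for Ldha as the partner of Ldhb, and for Pgam2 as the muscle form with a MEF2 match. They are from RefSeq on GRCm38.p6, where all 10 genes matched. Capitals mark matches on either strand to 5 motifs. These are the muscle factor MEF2's motif, the nuclear receptor site AAGGTCA, the hypoxia response core ACGTG, the GC box of Sp1, which reads GGGCGG, and the E box of muscle bHLH factors, which reads CAGCTG. Overlapping matches of a motif were joined and counted once.
Pfkp, chr13:6648772-6649021, minus strand: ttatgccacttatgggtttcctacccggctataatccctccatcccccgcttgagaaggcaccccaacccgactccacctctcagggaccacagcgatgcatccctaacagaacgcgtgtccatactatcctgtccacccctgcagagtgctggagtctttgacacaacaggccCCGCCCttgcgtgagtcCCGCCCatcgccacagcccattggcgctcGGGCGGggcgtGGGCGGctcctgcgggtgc
Eno3, chr11:70656926-70657175, plus strand: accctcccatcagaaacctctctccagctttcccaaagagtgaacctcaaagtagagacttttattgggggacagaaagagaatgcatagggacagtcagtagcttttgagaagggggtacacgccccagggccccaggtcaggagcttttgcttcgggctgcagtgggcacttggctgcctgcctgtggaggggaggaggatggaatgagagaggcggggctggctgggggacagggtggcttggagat
Pgam2, chr11:5803797-5804046, minus strand: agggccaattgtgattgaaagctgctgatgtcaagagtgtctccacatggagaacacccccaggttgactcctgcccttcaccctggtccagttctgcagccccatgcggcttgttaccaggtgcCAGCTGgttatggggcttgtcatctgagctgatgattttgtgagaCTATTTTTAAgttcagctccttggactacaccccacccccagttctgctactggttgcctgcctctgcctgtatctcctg
Ldha, chr7:46845554-46845803, plus strand: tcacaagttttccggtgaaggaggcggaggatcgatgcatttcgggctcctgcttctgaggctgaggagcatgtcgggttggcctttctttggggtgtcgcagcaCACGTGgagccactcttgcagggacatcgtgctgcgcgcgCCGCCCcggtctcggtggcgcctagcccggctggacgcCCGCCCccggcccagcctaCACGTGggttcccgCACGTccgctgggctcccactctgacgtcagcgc
Ldhb, chr6:142507958-142508207, minus strand: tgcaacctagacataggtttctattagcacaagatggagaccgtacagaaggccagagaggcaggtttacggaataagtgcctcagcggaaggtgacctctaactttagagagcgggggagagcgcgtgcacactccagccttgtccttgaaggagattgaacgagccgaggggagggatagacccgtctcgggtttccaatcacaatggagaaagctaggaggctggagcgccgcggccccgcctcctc
The Pfkp window held 4 GGGCGG matches, a motif present in 32.7% of 32851 such windows. The Ldha window, the first of 2 listed starts, held 3 ACGTG stretches (16.6% of all windows) and 2 of GGGCGG. The window of the other Ldha start, not shown, held none of the 5 motifs, and neither did the Ldhb and Eno3 windows. Pgam2 had a MEF2 match (2.92% of all windows) and a CAGCTG match (13%). Among the other members, Hk2 had 2 ACGTG and 3 GGGCGG matches, Pgam1 had 1 ACGTG match, and Pfkm had 1 ACGTG match at 2 of its 4 listed starts. Of the 3 listed Eno1 starts, 2 had GGGCGG matches and the other had AAGGTCA (4.08% of all windows), and neither Hk1 start had any match. A match says only that the letters are present.

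Measured per deposited gene length, the muscle or heart form stood above its partner in all 5 pairs and all 8 libraries. The unit used for this is RPKM, the TMM-scaled CPM divided by the deposited gene length in kilobases. Comparisons between genes depend on these lengths. They are 9395 bases for Pfkp and 2982 for Ldha, whose longest GENCODE vM21 coding transcripts have 4145 and 1815. For Pfkm and Ldhb they are 3051 and 1570, against 2879 and 1304. For Hk1, Hk2, Eno1 and Eno3 they are 8532, 5969, 5379 and 1689, against 4278, 5513, 2027 and 1564. In unscaled reads single colored replicate 1 had more Pfkp (1253) than Pfkm (732) and more Ldha (2587) than Ldhb (1776). Divided by the transcript lengths instead, Pfkp and Ldha would still stand above their partners in that library. Differences between groups in a log2 ratio do not depend on gene length. In double colored cells the order ran from Eno3 (86.0 ± 5.58 RPKM, SD, n = 4 here and below) through Ldhb (66.1 ± 3.90), Pgam2 (50.1 ± 6.75), Ldha (30.5 ± 3.61), Pfkm (16.0 ± 1.94) and Hk2 (9.99 ± 1.85) to Pfkp (2.14 ± 0.543), Hk1 (1.12 ± 0.112), Eno1 (0.683 ± 0.120) and Pgam1 (0.0823 ± 0.0441). In single colored cells the order was the same, but the first neighbours, Eno3 at 54.9 ± 15.3 and Ldhb at 48.9 ± 13.4 RPKM, lay within each other's spread. So did Ldhb and Pgam2 (40.4 ± 12.6 RPKM), and Pfkm (10.9 ± 3.21 RPKM) and Hk2 (9.59 ± 2.87 RPKM).

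**Figure D2:**
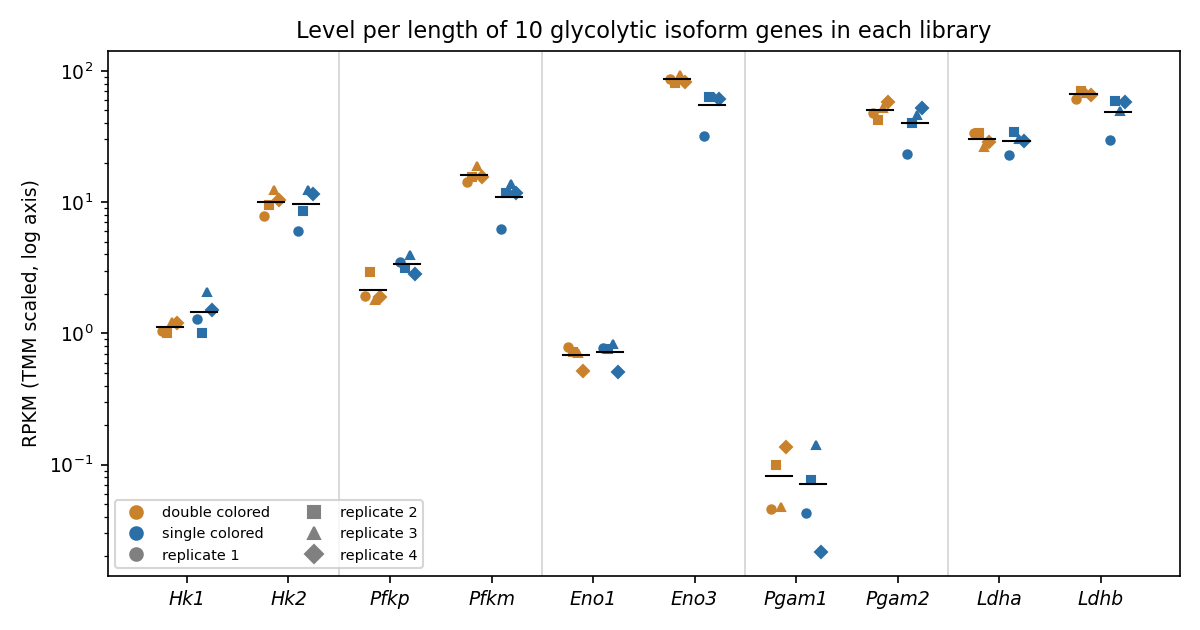
RPKM on a log axis for each of the 10 genes, ubiquitous form left of its partner (Ldha left of Ldhb), with 1 point per library, color for the group, symbol for the replicate number and a bar at the group mean. Eno3, Ldhb and Pfkm lie lower in all 4 single colored libraries, and Pgam1 reaches at most 0.142 RPKM in any library.

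No member passed the threshold in the fit across 12466 genes (edgeR quasi-likelihood test, adjusted p under 0.05), a threshold that 2.48% of tested genes passed, 2.32% higher and 0.16% lower in single colored cells. Of the members 9 were tested, and Pgam1 was too low to be. At an unadjusted p under 0.05 there were 4 of the 9, against 15.1% of all tested genes: Pfkp with a positive log2 fold change of single over double colored cells, and Pfkm, Eno3 and Ldhb with negative ones. DESeq2 placed 2 past its threshold, Pfkp (adjusted p = 0.0241) and Eno3 (0.0352), along with 3.97% of the 14030 genes it tested. With the replicate number as a block in edgeR, 4 of the 9 members and 7.53% of all tested genes passed. Pfkp was higher, as were 4.97% of all tested genes in that fit, and Pfkm, Eno3 and Ldhb were lower, as were 2.57%. The CPM of Pfkm, Eno3 and Ldhb did not overlap between the groups, all lower in single colored cells, where 9.14% of all tested genes did not overlap, 5.37% higher and 3.76% lower. Each of the 5 muscle or heart forms had a negative log2 fold change (median -0.43). The 4 tested partners were mixed, with Pfkp at 0.65, Hk1 at 0.39, Eno1 at 0.08 and Ldha at -0.07 (median 0.23). Over all tested genes 49.4% were positive, with a median of -0.01. The 12 cardiomyocyte markers had the same median as the muscle or heart forms, -0.43, with 1 of 12 positive, 0 past the threshold and 2 lower with the block, and their part in the result was not tested. Without single colored replicate 1 the log2 fold changes of Pfkm, Eno3 and Ldhb were -0.38, -0.46 and -0.26, and that of Pfkp was 0.62. With scaling by library totals alone, which moved the median of all genes to 0.48, Pgam2 and Hk2 turned positive, at 0.12 and 0.40, Ldhb stood at 0, and Pfkm and Eno3 were at -0.11 and -0.20. Ratios within a library do not depend on this scaling.

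**Figure D3:**
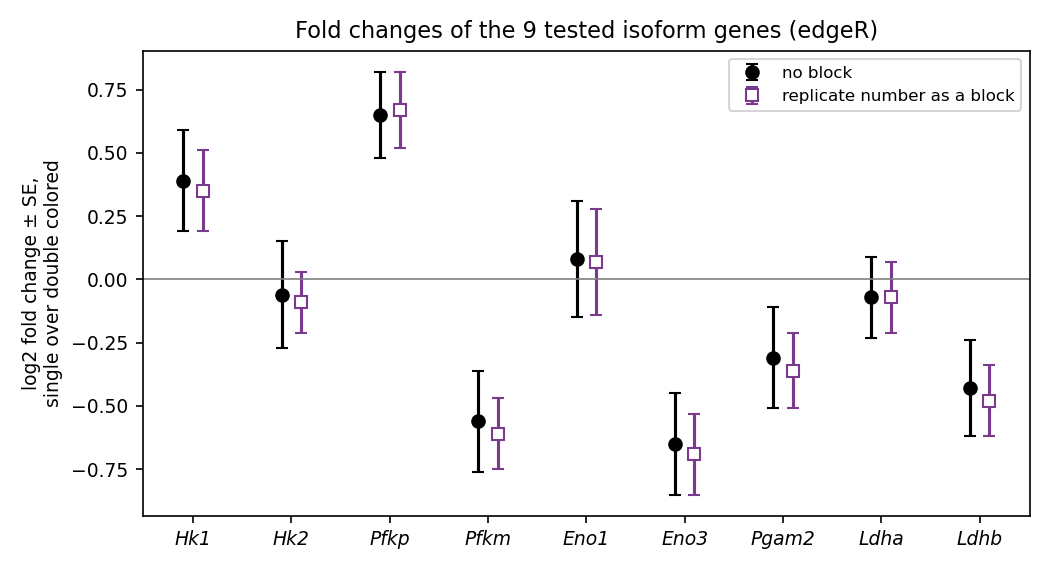
Log2 fold change of single over double colored cells with its SE for the 9 tested members, without a block (filled) and with the replicate number as a block (open). Pfkp lies highest at 0.65 and Eno3 lowest at -0.65 without the block.

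Phosphofructokinase had the largest difference in isoform ratio of the 5 pairs. Pfkm, the muscle subunit (ENSMUSG00000033065, mm9 chromosome 15, 97923020 to 97962878), was measured at 6.29, 11.8, 13.8 and 11.7 RPKM in single colored replicates 1 to 4 and at 14.3, 15.6, 18.8 and 15.5 RPKM in double colored replicates 1 to 4. Every single colored library lay below every double colored one. Its log2 fold change was -0.56 ± 0.20 (SE; edgeR adjusted p = 0.175) and -0.61 ± 0.14 with the block (adjusted p = 0.00998). Pfkp, the platelet-type subunit (ENSMUSG00000021196, chromosome 13, 6579014 to 6648023), stood at 3.49, 3.14, 3.94 and 2.85 RPKM in single and at 1.91, 2.95, 1.80 and 1.90 RPKM in double colored replicates. The groups met only where double colored replicate 2 lay above single colored replicate 4. The log2 fold change of Pfkp was 0.65 ± 0.17 (edgeR adjusted p = 0.0600) and 0.67 ± 0.15 with the block (adjusted p = 0.00836), and without double colored replicate 2 it was 0.84 (edgeR adjusted p = 0.0208). Over 3.96% of its length Pfkp shares exons with Pitrm1 on the opposite strand, and whether reads were counted by strand is not stated in the labels.

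The ratio of Pfkp to Pfkm, with 0.5 added to each read count and both divided by gene length, was 0.556, 0.266, 0.287 and 0.244 in single colored replicates 1 to 4 and 0.134, 0.190, 0.0956 and 0.122 in double colored replicates 1 to 4. All single colored libraries lay above all double colored ones, with replicate 1 the highest. The mean log2 ratio differed by 1.28 ± 0.34 (SE), or 2.43-fold (p = 0.0286 by a two-sided exact permutation test, the minimum over 70 groupings; 0.143 by Benjamini-Hochberg over the 5 ratios). Within the numbered pairs the log2 ratio was higher in single colored cells by 0.49 to 2.05 in all 4 (exact permutation p = 0.125, the smallest that pairs allow). Without single colored replicate 1, the library with the lowest cardiomyocyte and highest leukocyte sums, the difference was 1.01 (exact permutation p = 0.0571). Counted together with Pfkl, the liver-type subunit, Pfkm made up 58.0% to 73.3% of phosphofructokinase RPKM in single and 78.2% to 87.0% in double colored libraries, Pfkp 17.9% to 32.2% and 8.32% to 14.8%, and Pfkl 7.25% to 9.79% and 4.64% to 7.66%. Myeloid and lymphocyte sums were also higher in every single colored library than in any double colored one. Fibroblast sums overlapped, at 841 to 2330 CPM in single and 403 to 934 CPM in double colored libraries. The part of these sums in the result was not tested.

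**Figure D4:**
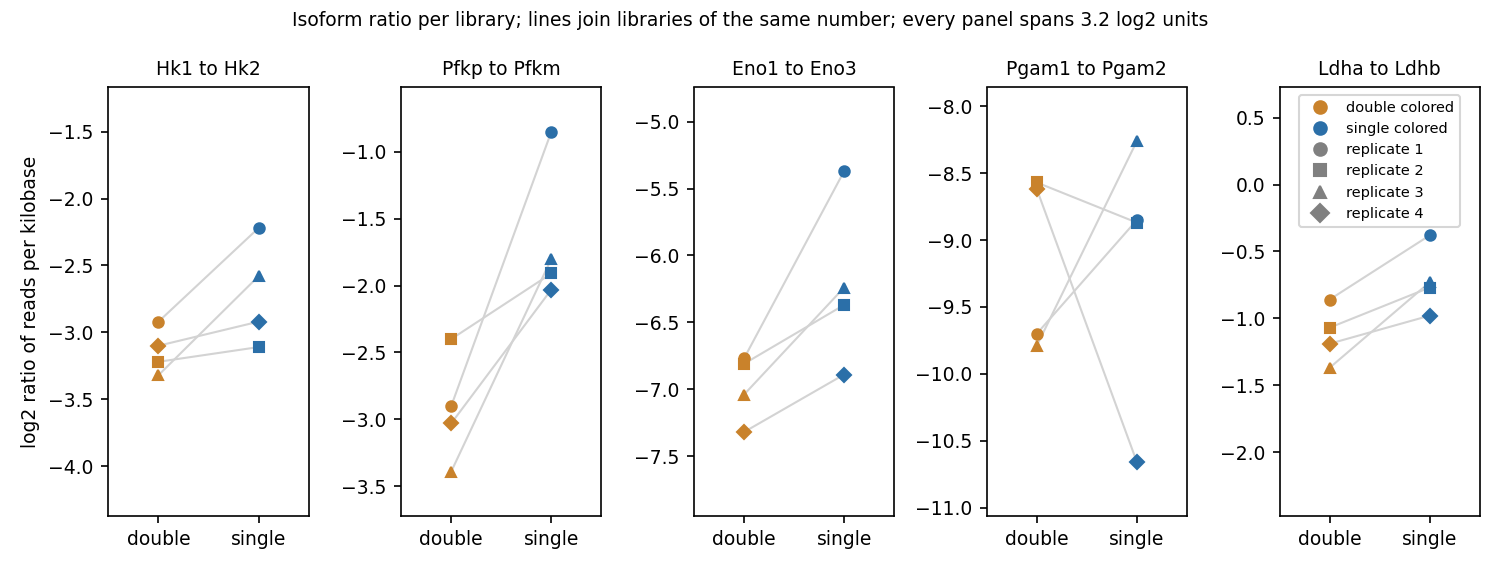
Log2 ratio of reads per kilobase for the 5 pairs, double colored at the left and single colored at the right of each panel, with grey lines joining libraries of the same replicate number and the same span of the y axis in each panel. The lines rise in all 4 numbered pairs for every ratio but that of Pgam1 to Pgam2, and the groups are separate for Pfkp to Pfkm alone.

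Enolase reads came mostly from the muscle gene. Eno3 (ENSMUSG00000060600, chromosome 11, 70470704 to 70476015) was measured at 32.0, 63.6, 63.3 and 60.7 RPKM in single and at 86.9, 80.9, 93.5 and 82.8 RPKM in double colored replicates 1 to 4. The groups did not overlap, and single colored replicate 1 stood far below the other single colored libraries. The log2 fold change of Eno3 was -0.65 ± 0.20 (edgeR adjusted p = 0.109), -0.69 ± 0.16 with the block (adjusted p = 0.0104) and -0.46 without single colored replicate 1 (adjusted p = 0.0498). Eno1, the ubiquitous alpha enolase (ENSMUSG00000063524, chromosome 4, 149610830 to 149622988), had 66 to 173 reads per library, 0.509 to 0.837 RPKM in single and 0.513 to 0.794 RPKM in double colored cells. The log2 fold change of Eno1 was 0.08 ± 0.23 (edgeR adjusted p = 0.921), and its sign turned when double colored replicate 4 (-0.04) or single colored replicate 3 (-0.01) was left out. GENCODE vM21 transcripts of 3 other genes, Eno1b among them, match Eno1 at 95% identity or more over at least 300 bases, and the deposited counts are from alignments of mapping quality 30, so the Eno1 level is uncertain.

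The Eno1 to Eno3 ratio was 0.0241, 0.0121, 0.0133 and 0.00844 in single and 0.00918, 0.00893, 0.00760 and 0.00624 in double colored replicates 1 to 4. Single colored replicate 4 lay within the double colored range and the other single colored libraries above it. The mean log2 ratio differed by 0.77 ± 0.34, single above double (two-sided exact permutation p = 0.0857; 0.143 adjusted over the 5 ratios) and in all 4 numbered pairs by 0.44 to 1.39. It was 0.49 without single colored replicate 1 (exact permutation p = 0.143), 0.99 without single colored replicate 4 (p = 0.0286), and 0.79 with Eno1b reads added to Eno1 (p = 0.0286). Eno2, the neuronal form, added at most 0.524% of enolase RPKM in any library. Eno3 made up 97.1% to 98.7% in single and 98.8% to 99.2% in double colored libraries. These shares use the deposited Eno1 length of 5379 bases, and with its transcript length of 2027 bases the Eno1 share would be larger.

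Of the lactate dehydrogenase subunits, the heart form was lower in single colored cells with the block, and no difference in its partner passed the test. Ldhb (ENSMUSG00000030246, chromosome 6, 142438769 to 142456477) stood at 29.6, 58.5, 49.7 and 57.7 RPKM in single and at 61.0, 69.9, 68.1 and 65.1 RPKM in double colored replicates 1 to 4. Again all single colored libraries lay below all double colored ones, replicate 1 lowest. The log2 fold change of Ldhb was -0.43 ± 0.19 (edgeR adjusted p = 0.293) and -0.48 ± 0.14 with the block (adjusted p = 0.0457), and -0.26 without single colored replicate 1 (adjusted p = 0.391). Ldha (ENSMUSG00000063229, chromosome 7, 54096845 to 54110997) was measured at 22.7, 34.4, 30 and 29.3 RPKM in single and 33.7, 33.3, 26.3 and 28.5 RPKM in double colored replicates. Its groups overlapped throughout, and its log2 fold change of -0.07 ± 0.16 (edgeR adjusted p = 0.906) became 0.03 without single colored replicate 1. Transcripts of 3 pseudogenes match Ldha, and of 1 matches Ldhb, by the same 95% rule.

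The Ldha to Ldhb ratio was 0.767, 0.587, 0.603 and 0.507 in single and 0.552, 0.476, 0.386 and 0.438 in double colored replicates 1 to 4. Only single colored replicate 4 fell below double colored replicate 1. In log2 the ratio differed by 0.41 ± 0.16, single above double (two-sided exact permutation p = 0.0571; 0.143 adjusted over the 5 ratios), by 0.21 to 0.64 in all 4 numbered pairs, and by 0.30 without single colored replicate 1 (exact permutation p = 0.114). Ldha thus made up 33.6% to 43.4% of the pair per length in single and 27.9% to 35.6% in double colored libraries.

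The hexokinase ratio differed by about as much as the lactate dehydrogenase ratio, and its groups overlapped. Hk2 (ENSMUSG00000000628, chromosome 6, 82675019 to 82724448), the insulin-responsive hexokinase of muscle, ranged from 6 to 12.3 RPKM in single and from 7.87 to 12.3 RPKM in double colored libraries. The log2 fold change of Hk2 was -0.06 ± 0.21 (edgeR adjusted p = 0.938) and turned to 0.11 without single colored replicate 1 and to 0.05 without double colored replicate 3. Hk1 (ENSMUSG00000037012, chromosome 10, 61731603 to 61842656), the housekeeping hexokinase, ranged from 0.998 to 2.05 RPKM in single and from 1.01 to 1.23 RPKM in double colored libraries. Single colored replicate 3 was the highest and single colored replicate 2 the lowest of all. For Hk1 the fit gave 0.39 ± 0.20 in log2, short of the threshold (edgeR adjusted p = 0.382, and 0.201 with the block), and 0.17 without single colored replicate 3. The Hk1 to Hk2 ratio was 0.215, 0.116, 0.167 and 0.132 in single and 0.132, 0.107, 0.100 and 0.117 in double colored replicates 1 to 4, so that the groups overlapped. Its log2 difference was 0.44 ± 0.21, single above double (two-sided exact permutation p = 0.114; 0.143 adjusted over the 5 ratios). It came to 0.12 to 0.74 in the 4 numbered pairs, 0.27 without single colored replicate 1 (exact permutation p = 0.171) and 0.57 without single colored replicate 2 (p = 0.0286).

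Phosphoglycerate mutase was measured through Pgam2 alone. Pgam2 (ENSMUSG00000020475, chromosome 11, 5701643 to 5703736) stood at 23.1, 40.0, 45.8 and 52.5 RPKM in single and at 47.6, 42.3, 52.3 and 58.2 RPKM in double colored replicates 1 to 4. Single colored replicates 1 and 2 lay below every double colored library, and single colored replicates 3 and 4 lay within the double colored range. The log2 fold change of -0.31 ± 0.20 did not pass (edgeR adjusted p = 0.512, and 0.154 with the block). It was -0.13 without single colored replicate 1 and -0.47 without single colored replicate 4. Pgam1 (ENSMUSG00000011752, chromosome 19, 41986361 to 41993154), the form of most other tissues, had 3, 4, 10 and 1 reads in single and 2, 4, 2 and 6 reads in double colored replicates. At this depth no difference in Pgam1 or in its ratio to Pgam2 was detectable: the log2 ratio differed by 0.01 ± 0.62 (exact permutation p = 1, two-sided), and the sign changed with the library left out. By numbered pair it was higher in single colored cells in 2 of 4. A pseudogene, Pgam1-ps2, matches Pgam1 by the 95% rule and had reads in 1 library, so the Pgam1 level is uncertain too.

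Of 43 other genes of glycolysis and glucose handling, 35 were tested and 1 passed in the fit without a block, against 2.48% of all tested genes. Their median log2 fold change was -0.11, and 10 of the 35 were positive. The gene that rose was Hk3, a hexokinase found mainly in white blood cells, at 1.05, 0.692, 0.382 and 0.722 RPKM in single and 0.114, 0.0864, 0.0587 and 0.182 RPKM in double colored replicates 1 to 4. Every single colored library lay above every double colored one, and the log2 fold change was 2.67 ± 0.42 (edgeR adjusted p = 0.00310). Hk3 made up 2.59% to 12.6% of hexokinase RPKM in single and 0.431% to 1.56% in double colored libraries, where it had 5 to 16 reads. The summed myeloid markers were also higher in single colored libraries, at 286 to 496 CPM against 151 to 208 CPM in double colored ones. Their part in the Hk3 result was not tested.

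With the block 2 of the 35 were higher, against 4.97% of all tested genes, and 3 lower, against 2.57%. Lower were Phkg1, the muscle catalytic subunit of phosphorylase kinase (log2 fold change -1.94 ± 0.52, edgeR adjusted p = 0.0253 with the block and 0.0663 without), and Slc2a4, the insulin-responsive glucose transporter GLUT4 (-0.60 ± 0.17, 0.0336 and 0.218). Pfkfb1, which sets the level of an activator of phosphofructokinase, was lower as well (-0.92 ± 0.25, edgeR adjusted p = 0.0263 and 0.218). Phkg1 had only 4 to 37 reads per library and shares exons with Sumf2 on the opposite strand over 19.6% of its length. The other gene that was higher, Pfkfb3, named after its values were seen, makes the same activator and stood at 0.71 ± 0.17 in log2 with the block (edgeR adjusted p = 0.0163, and 0.281 without it). Of the enzymes of other steps, none of these 4 passed: Pkm stood at -0.02 ± 0.15, Tpi1 at -0.02 ± 0.15, Pgk1 at 0 ± 0.19 and Aldoa at -0.12 ± 0.17 in log2 fold change (adjusted p from edgeR 0.971, 0.980, 0.999 and 0.814), and these 4 were also named after their values were seen.

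**Figure D5:**
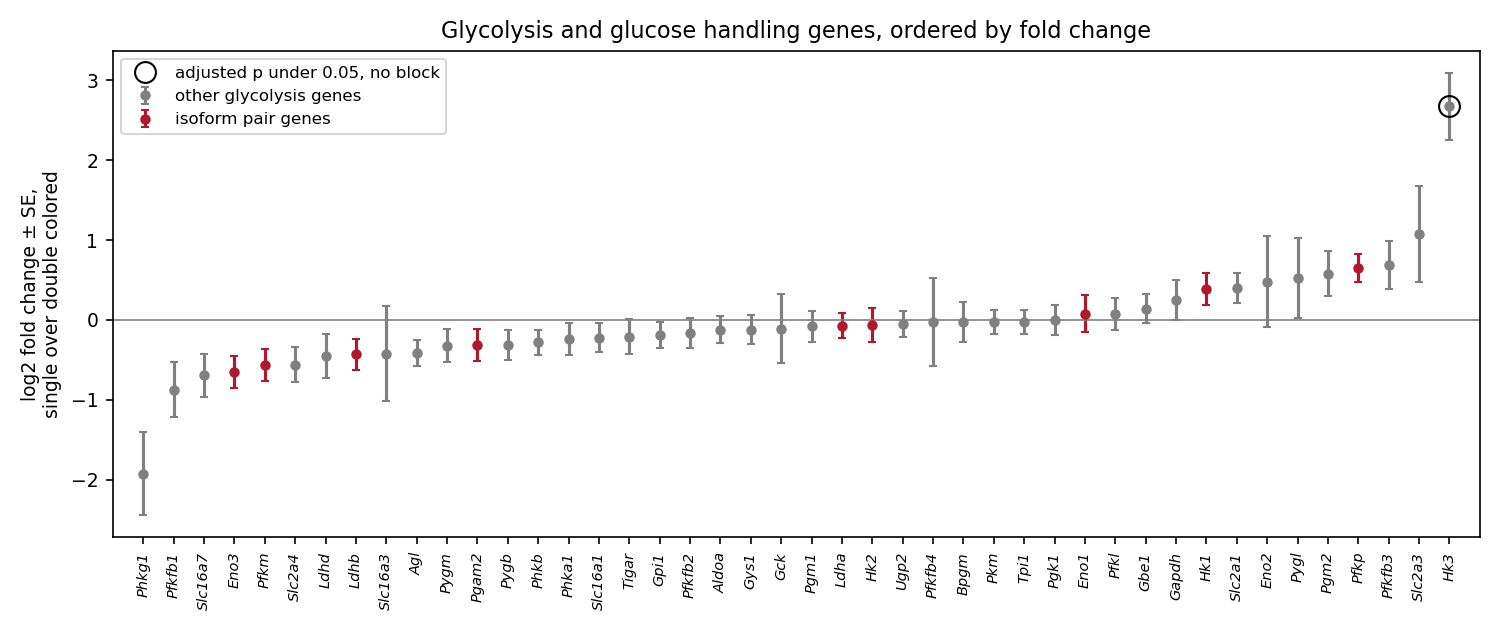
Log2 fold change of single over double colored cells with its SE for the 35 other tested genes of glycolysis and glucose handling (grey) and the 9 tested members (red), ordered by size. Hk3 at 2.67 is the circled gene past the threshold, and Phkg1 at -1.92 lies lowest.

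By profile over the 8 libraries, the gene nearest to Pfkm among those searched was Acadm, and the nearest to Eno3 was Hsdl2. Nearest to Ldhb was Pdha1, and nearest to Pfkp was Fam49b. The search covered tested genes without the other members, predicted and Rik genes, pseudogenes, small RNAs and genes without a symbol. The measure is the Euclidean distance between mean-centred log2 CPM profiles, which was 0.22, 0.18, 0.19 and 0.40 for these pairs of genes. The nearest to the other tested members were Tnfrsf10b for Hk1, Bag3 for Hk2, Golph3l for Eno1, Lmod3 for Pgam2 and Pja2 for Ldha, at distances of 0.33, 0.25, 0.28, 0.24 and 0.16.

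In the authors' deposited table, which puts double over single colored cells, the log2 fold changes were of opposite sign by that convention: Pfkp had -0.64, Pfkm 0.57, Eno3 0.65 and Ldhb 0.44. The FDR values of the authors' deposited table for them were 0.355, 0.464, 0.417 and 0.561.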

How the data were processed

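Per the labels' protocols, RNA of 4 single and 4 double colored samples came from the miRNeasy Micro Kit and libraries from the Ovation RNA-seq System v2 Kit. The authors used STAR 2.5.2b, featureCounts (Subread) and the mm9 build, per the submitters' processing notes. The alignment names in the file headers carry a mapping quality of 30. The deposited values are whole raw read counts, per the file headers, not estimated counts, and nothing was rounded. The authors' deposited CPM were used as an alternative for ratios, and their deposited log2 fold changes, p-values and FDR are quoted as theirs. Another 16 per-library columns were not used.

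Symbols were matched by Ensembl identifier for 32919 genes, and 5072 have none. Counts of 12466 genes kept by filterByExpr (minimum count 10) were fitted with edgeR 4.0.16 in R 4.3.3 (TMM, robust quasi-likelihood F-test, Benjamini-Hochberg at 0.05). TMM factors were 0.733 to 0.972 in double and 0.953 to 1.44 in single colored libraries. Ratios add 0.5 to each count, divide by gene length and are compared as log2 by an exact permutation test, two-sided. Leaving out a library leaves 35 groupings and a smallest p of 0.0286. Near copies were sought with BLAST 2.17.0 and exon overlaps with GenomicRanges 1.54.1. Alternatives were DESeq2 1.42.0, library totals, no filter, the block and omission of each library, with removal of mitochondrial genes added after the data were seen. On simulated data for this comparison, with 12259 genes, edgeR called 49% of genes given a log2 change of 1 and 84.2% of those given 2. Of its 135 calls 7 were false. The simulation gave all libraries the same mean profile, as many increases as decreases and no replicate effect. The real libraries differ in these respects, so the rates may not hold for them.

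Members, lists and tests were chosen with earlier results of these data known. Named are all members, other glycolysis genes that passed or had the 4 smallest p, and the nearest gene per member. Pfkl, Eno2, Pfkfb3, Pkm, Tpi1, Pgk1, Aldoa and Slc2a1 were named outside this rule, after their values were seen. Same-numbered libraries deviated together across genes (correlations 0.257, 0.126, 0.136 and 0.139, against at most 0.108 with another number), so the numbers were taken to pair them; the labels do not say what they mark.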

Additional observations from a re-analysis of the deposited data

Results flagged for a closer look

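Among 38 groups of 4 values (CPM of the members and of 4 other glycolysis genes, and the log2 ratios), 2 held a library far from the other 3, where chance gives about 1 in 20. Pfkp in double colored replicate 2 stood at 27.7 CPM, above 16.9 to 18.0 CPM in the other double colored libraries. Eno3 in single colored replicate 1 stood at 54.0 CPM, below 103 to 107 CPM in the other single colored libraries.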

How the results depend on the processing

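The count of differing genes, 309, was 557 with DESeq2, 1390 with library totals (1389 higher and 1 lower, against 289 and 20), 805 with no filter, 939 with the replicate block and 134 to 304 with a library left out, lowest without double colored replicate 4 and also 142 without single colored replicate 1 and 191 without double colored replicate 2. Members past the threshold, 0 in the main analysis, numbered 2 with DESeq2, 2 with library totals (Pfkp and Hk1, both higher), 3 with no filter (Pfkp, Pfkm and Eno3), 4 with the replicate block and 0 to 1 with a library left out (Pfkp without double colored replicate 2, Eno3 without single colored replicate 1). Other glycolysis genes past it, 1, numbered 2, 3, 3 and 5 in those settings, and 1 to 2 with a library left out. With library totals Hk2 stood at 0.40, Pgam2 at 0.12, Ldha at 0.41 and Ldhb at 0. Over single omissions Hk2 ranged from -0.21 to 0.11 (0.05 without double colored replicate 3), Eno1 from -0.04 to 0.20 (-0.01 without single colored replicate 3) and Ldha from -0.16 to 0.03. The log2 ratio differences ranged, with a library left out, over 0.27 to 0.57 for Hk1 to Hk2, 1.01 to 1.46 for Pfkp to Pfkm, 0.49 to 0.99 for Eno1 to Eno3, -0.29 to 0.51 for Pgam1 to Pgam2 and 0.30 to 0.50 for Ldha to Ldhb. Pgam1 to Pgam2 stood at 0 on the deposited CPM, and Eno1 to Eno3 at 0.79 (exact permutation p = 0.0286) with Eno1b added. The causes were not tested. For the ratios the replicate block, as signs within pairs, gave the same differences and at best p = 0.125 (exact). Without mitochondrial genes no count moved by over 1.5 times. Reads of Pgam1 (1 to 10) limit its ratio.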

Other observations

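Glucose transporters form another muscle and ubiquitous pair, chosen after values were seen, and their ratio is therefore given without a test. The ratio of Slc2a1 (GLUT1, found in most tissues) to Slc2a4 (GLUT4) in reads per kilobase was 1.03, 0.478, 0.313 and 0.513 in single and 0.331, 0.274, 0.319 and 0.170 in double colored replicates 1 to 4. Single colored replicate 3 lay within the double colored range and the other 3 above it. Slc2a1 itself stood at 3.01, 2.53, 2.14 and 2.45 RPKM in single and 2.03, 2.07, 1.98 and 1.58 RPKM in double colored replicates. These did not overlap, as in 9.14% of all tested genes, 5.37% being higher in single colored cells. Slc2a1 did not pass the threshold (edgeR adjusted p = 0.318, and 0.214 with the block).

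Summed per length, the 2 forms of a pair gave 55.6 ± 15.3 RPKM in single and 86.7 ± 5.62 RPKM in double colored cells for enolase (SD, n = 4), 78.0 ± 17.9 and 96.5 ± 4.5 RPKM for lactate dehydrogenase, 14.2 ± 3.29 and 18.2 ± 1.87 RPKM for phosphofructokinase, and 11.1 ± 3.21 and 11.1 ± 1.95 RPKM for hexokinase. These sums depend on the scaling of the libraries and on the deposited gene lengths.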
